A study of Mus musculus with 6 samples.

Results

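The genes described here act in the bone morphogenetic protein (BMP) pathway and comprise the ligand genes *Bmp2*, *Bmp4*, *Bmp5* and *Bmp7*, the receptor genes *Bmpr1a* and *Bmpr2*, the inhibitor genes *Smad6*, *Smad7* and *Nog*, and the target gene *Msx1*. The members are all probes that the platform annotation names with one of these 10 symbols. This gave 9 probes, 1 for each gene except *Smad7*, which was not analysed here, among the 33012 probes of the array. The tissue was distal midgut of E13.5 mouse embryos, and each of 3 *Id2*+/+ and 3 *Id2*-/- samples was hybridized to a one-color microarray of its own. The *Id2*-/- embryos lacked the gene for the helix-loop-helix protein Id2 in all tissues, the *Id2*+/+ embryos were wild-type littermates, and no embryo is described as treated. The mutant mice of the study were kept on an inbred or a mixed genetic background, and the labels do not say which was used for these arrays. No source used here says whether a sample is 1 embryo or a pool, and p-values therefore cover only the variation among these 6 samples, which may be technical. *Id2* itself was not analysed, and the genotypes rest on the labels.

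BMP ligands are secreted proteins that bind a complex of type I receptors, such as the product of *Bmpr1a*, and type II receptors, such as the product of *Bmpr2*. The active receptors phosphorylate the receptor-regulated Smads, which enter the nucleus with Smad4 and switch on target genes, among them the *Id* genes, *Msx1* and *Smad6*. Signaling is held back outside the cell by binding proteins such as Noggin, the product of *Nog*, and inside the cell by Smad6 and Smad7, whose own genes respond to BMP and so form a negative feedback. In the developing gut, *Bmp4* is known as a gene of the mesenchyme beneath the endoderm. Id proteins bind E proteins and keep them from their DNA sites, the E-boxes. As *Id* genes are targets of BMP signaling, the comparison addresses whether the transcripts of the pathway itself differed in the midgut without *Id2*.

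Of the 9 genes, 6 had an entry in the RefSeq promoter table of the mouse genome, build GRCm38.p6. The 250 bases before the start site are shown for 3 of them, in capitals where they hold an E-box, searched as CANNTG, or the GC-rich element GGCGCC, which Smad proteins of the BMP pathway are known to bind. Both motifs read the same on either strand. The promoter of *Bmp4* (chr14:46390670-46390919, minus strand) is shown because it was the only one of the 4 ligand genes of the group above background, as defined below, on all 6 arrays. Those of *Smad6* (chr9:64022060-64022309, minus strand) and *Msx1* (chr5:37824586-37824835, minus strand) are shown because both are known BMP target genes, one above background on all 6 arrays and one on 2.
Bmp4: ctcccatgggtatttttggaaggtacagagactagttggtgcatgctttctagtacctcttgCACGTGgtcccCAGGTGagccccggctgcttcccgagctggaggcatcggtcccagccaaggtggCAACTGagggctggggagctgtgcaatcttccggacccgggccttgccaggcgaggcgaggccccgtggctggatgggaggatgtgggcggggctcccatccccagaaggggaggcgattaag
Smad6: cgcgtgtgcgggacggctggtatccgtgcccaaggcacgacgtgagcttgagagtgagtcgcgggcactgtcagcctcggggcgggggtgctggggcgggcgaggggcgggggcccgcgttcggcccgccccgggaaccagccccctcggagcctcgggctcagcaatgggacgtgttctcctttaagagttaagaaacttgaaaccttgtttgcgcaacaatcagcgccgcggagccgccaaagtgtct
Msx1: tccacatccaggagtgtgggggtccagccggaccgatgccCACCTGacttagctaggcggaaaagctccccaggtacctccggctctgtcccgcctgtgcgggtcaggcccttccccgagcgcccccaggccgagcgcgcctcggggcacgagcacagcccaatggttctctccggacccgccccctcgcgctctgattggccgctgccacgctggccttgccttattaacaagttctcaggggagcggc
CANNTG occurred 3 times in the window of *Bmp4*, starting at positions -188, -177 and -123 from the start site, and 1 time in that of *Msx1*, at -210. GGCGCC occurred in neither of these windows, and the window of *Smad6* held neither motif. In the windows of *Bmpr1a* and *Bmpr2*, GGCGCC occurred once each. Of all 32851 promoters in the table, 66.2% held CANNTG and 9.59% held GGCGCC, so a match in these windows is a description of the letters and not of binding.

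A probe is called above background where the signal-to-noise value of the scanner software was at least 3. Levels are given as log2 median-normalized signal, where 0 is the median intensity of the array, and differences are *Id2*-/- minus *Id2*+/+. Tests were restricted to the 12741 probes that carried no bad-spot flag anywhere and that exceeded background on the full set of 3 arrays in one genotype or in both. By array, between 13851 and 16498 unflagged probes were above background. The arrays numbered 1 stood apart in both genotypes. Over the tested probes their correlation was 0.984 with each other and between 0.909 and 0.931 with any of the remaining arrays. Same-numbered arrays differed in the median tested probe by 0.35, -0.04 and -0.19 for the numbers 1, 2 and 3. The differences by pair below are to be read against these values. The pairing of the arrays numbered 2 and 3 rests on their labels alone. The intestinal gene *Cdx2* and all 12 genes of an epithelial marker list were above background on all 6 arrays, as were 10 of 11 measured mesenchymal markers, so both layers of the gut wall were present. Of 8 measured intestinal epithelial markers 5 were above background on all arrays, whereas *Cdx1* was above it on none. Of the marker lists of neighboring organs, 0 of 6 pancreatic, 3 of 5 hepatic and 3 of 6 gastric genes were above background on all arrays. In bulk tissue, fewer cells of a type and less RNA per cell cannot be told apart. With 3 arrays a genotype, the smallest two-sided p of an exact permutation test is 0.1.

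Among the ligands, *Bmp4* gave a strong signal of similar size in both genotypes, whereas *Bmp2* was above background on the *Id2*-/- arrays alone. *Bmp4* encodes a ligand of the gut mesenchyme. Its log2 signal was 5.38, 4.69 and 4.96 on the *Id2*+/+ arrays numbered 1, 2 and 3 and 5.68, 4.82 and 4.8 on the *Id2*-/- arrays. The array numbered 1 was the highest in each genotype, and the groups overlapped. The means were 5.01 ± 0.35 and 5.10 ± 0.50 (SD, n = 3), and the difference was 0.09 with a 95% interval of -0.71 to 0.88, or 0.612-fold to 1.84-fold (adjusted p = 1.0 from limma). By pair it was 0.30, 0.13 and -0.17, which follows the order of the medians over all tested probes. It became -0.08 without the *Id2*+/+ array numbered 2 and -0.20 without the *Id2*-/- array numbered 1, so its sign is not settled.

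*Bmp2*, which encodes the ligand most similar to that of *Bmp4*, had log2 signals of -3.34, -1.16 and -0.58 on the *Id2*+/+ arrays, where signal-to-noise values were -0.04, 1.91 and 2.21. On the *Id2*-/- arrays they were -0.34, -0.48 and -0.39, with signal-to-noise values of 10.84, 3.16 and 9.36. All *Id2*-/- signals lay below the array median, yet each was higher than every *Id2*+/+ signal. The groups thus did not overlap. This held for 2.73% of all tested probes in this direction, a share with which *Bmp2* cannot be compared, since it entered the test only through its *Id2*-/- signals. A signal that exceeded background throughout one genotype, *Id2*-/-, and nowhere in the other was found for 0.143% of the unflagged probes. These 32189 probes were counted whether above background or not, so nothing is read from this share either. The ratio was 2.13-fold when each *Id2*+/+ array was given the higher of the probe's signal and the lowest signal above background. On 2 of the 3 arrays this was the probe's own signal below background, so the ratio is no strict limit. The difference of 1.29 (standard error 0.66, 95% interval -0.26 to 2.84) did not pass limma (adjusted p = 1.0). It came mostly from the pair numbered 1, at 3.0, against 0.68 and 0.18 in the others, and was 0.46 without the *Id2*+/+ array numbered 1. With the array number as a block *Bmp2* passed limma (adjusted p = 0.000346), in a model that gives every probe the same standard error of 0.27. It did not pass once the block was combined with quantile normalization (difference 1.17, adjusted p = 0.735) or with centring of each array on its tested probes (difference 1.24, adjusted p = 0.702). Over all its alternatives the adjusted p ranged from 0.000346 to 1.0. *Bmp2* was at its lowest on the *Id2*+/+ array numbered 1. That array had 15796 unflagged probes above background, more than any other except the *Id2*-/- array numbered 1. Its summed linear signal was the lowest of the 6 arrays for 10 of 12 marker lists. For the mesothelium and the pancreas it was instead the highest, at 200 and 19.2. For the 12 epithelial markers the sum was 501, against 717 to 1410 on the others. For 11 mesenchymal markers it was 3570 against 4380 to 8400, and for 8 endothelial markers 60.5 against 107 to 140. The part of these shifts in the value of *Bmp2* was not tested.

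*Bmp5* and *Bmp7*, which encode ligands of another branch of the family, were above background on 4 and 3 of the 6 arrays and were not tested. *Bmp5* had log2 signals of 1.77, -0.09 and 0.82 in *Id2*+/+ and 1.87, 0.59 and 0.91 in *Id2*-/- samples. The pairs differed by 0.10, 0.68 and 0.09, all positive, though the array numbered 2 was below background in *Id2*+/+ and that numbered 3 in *Id2*-/-. *Bmp7* had 1.62, 0.22 and 0.04 in *Id2*+/+ against 2.01, -1.17 and 0.19 in *Id2*-/- samples. For both genes the array numbered 1 was the highest of its genotype, and the groups overlapped. The lowest *Bmp7* value, on the *Id2*-/- array numbered 2, lay below background. The mean difference was 0.29 for *Bmp5* and -0.28 for *Bmp7*. Fitted with no limit on the signal-to-noise value, their 95% intervals ran from -1.02 to 1.6 and from -2.17 to 1.6, which leaves differences of more than 2-fold in either direction undetermined.

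**Figure D1:**
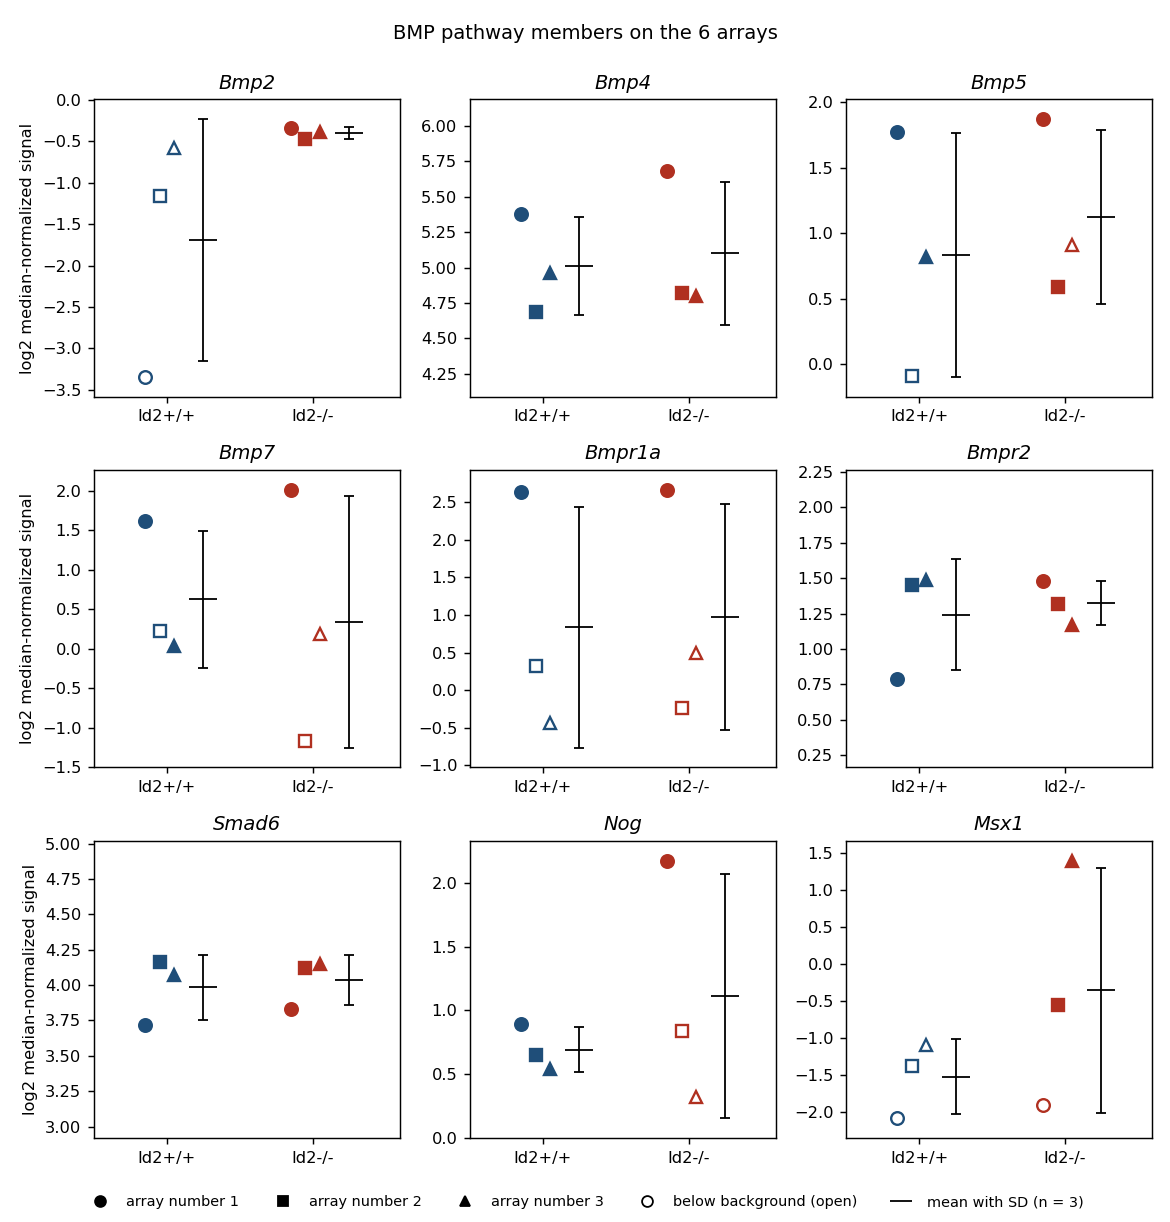
Log2 median-normalized signal (vertical axes, each of its own range) of the 9 measured genes on the 3 *Id2*+/+ and 3 *Id2*-/- arrays. Circles, squares and triangles are the arrays numbered 1, 2 and 3, open symbols lie below background, and bars give the mean and SD. The 3 *Id2*+/+ points of *Bmp2* are open and below its *Id2*-/- points, and the arrays numbered 1 are the highest for *Bmp4*, *Bmp5*, *Bmp7*, *Bmpr1a* and *Nog*.

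The receptor genes did not separate by genotype. *Bmpr2* encodes the type II receptor that is specific to BMP ligands, and was above background on all 6 arrays. Its log2 signal was 0.79, 1.45 and 1.49 in *Id2*+/+ and 1.48, 1.32 and 1.17 in *Id2*-/- samples. The *Id2*+/+ array numbered 1 was lower than the other 5, and the remaining *Id2*+/+ signals lay within or just above the *Id2*-/- range. The difference was 0.08 (standard error 0.28, 95% interval -0.58 to 0.74, 0.671-fold to 1.67-fold), and limma did not call it (adjusted p = 1.0). Without the *Id2*+/+ array numbered 1 it was -0.15, and without both arrays numbered 1, an alternative chosen after seeing the data, it was -0.23.

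*Bmpr1a*, which encodes a type I receptor of the BMP ligands, was above background on both arrays numbered 1 and on no other, and was not tested. Its signals were 2.63, 0.32 and -0.44 in *Id2*+/+ and 2.66, -0.24 and 0.50 in *Id2*-/- samples. The 2 arrays numbered 1 differed by 0.03, while each stood more than 2 log2 units above the other arrays. The pairs numbered 2 and 3 went opposite ways, at -0.57 and 0.94, on signals below background.

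Of the inhibitors, *Smad6* had the smallest difference between genotypes among the tested genes of the group. *Smad6* encodes an inhibitory Smad and is itself induced by BMP signaling. It had log2 signals of 3.72, 4.16 and 4.07 in *Id2*+/+ and 3.83, 4.12 and 4.15 in *Id2*-/- samples, with signal-to-noise values of 23.17 to 39.67. The arrays numbered 1 were slightly lower in both genotypes, and the groups overlapped. The means were 3.98 ± 0.23 and 4.03 ± 0.18 (SD, n = 3). The difference of 0.05 had a 95% interval of -0.53 to 0.63, that is 0.693-fold to 1.54-fold (limma adjusted p = 1.0). With quantile normalization it was -0.01, and it was also negative without the *Id2*+/+ array numbered 1 (-0.08) and without the *Id2*-/- array numbered 3 (-0.01). A change of 2-fold in either direction lies outside the interval, but any from 0.693-fold to 1.54-fold lies inside it.

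*Nog*, which encodes the secreted antagonist Noggin, exceeded background in each of the 3 *Id2*+/+ samples but in 1 *Id2*-/- sample only. Its signals were 0.89, 0.65 and 0.54 in *Id2*+/+ and 2.17, 0.84 and 0.32 in *Id2*-/- samples. A single array, the *Id2*-/- one numbered 1, was far above the other 5, among which the genotypes overlapped. The difference of 0.42 (standard error 0.47, 95% interval -0.68 to 1.52) did not pass limma (adjusted p = 1.0) and became -0.11 without that array. The pairs differed by 1.28, 0.19 and -0.22. The pair numbered 1 also had the largest medians of 5 smooth muscle and 6 endothelial markers, at 0.93 and 1.18. Those of 3 mesothelial and 2 pancreatic markers were -0.66 and -1.52 in this pair. The summed smooth muscle and endothelial signals were lowest on the *Id2*+/+ array numbered 1, at 566 and 60.5. On the *Id2*-/- array numbered 1, where *Nog* was high, they were 913 and 137, against *Id2*-/- maxima of 1040 and 140. The part of these lists in the value of *Nog* was not tested.

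*Msx1*, which encodes a homeobox factor and is a known BMP target, exceeded background on 2 of the 3 *Id2*-/- arrays but in none of the *Id2*+/+ samples, and was not tested. Its log2 signals were -2.08, -1.38 and -1.09 in *Id2*+/+ and -1.90, -0.55 and 1.39 in *Id2*-/- samples. The *Id2*-/- array numbered 3 was the highest and the only one above the array median, with a signal-to-noise value of 7.29. The array numbered 2 reached 3.01, just past the limit, and that numbered 1 lay among the *Id2*+/+ values at -0.51. The difference by pair was 0.18, 0.83 and 2.48, all positive, and the mean difference was 1.17. The corresponding ratio of 2.24-fold uses each *Id2*+/+ signal at its measured level below background and is no strict limit. In a fit with no limit on the signal-to-noise value the 95% interval was -0.64 to 2.97 (adjusted p = 1.0 from limma). *Msx2*, the related gene, was above background on no array.

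**Figure D2:**
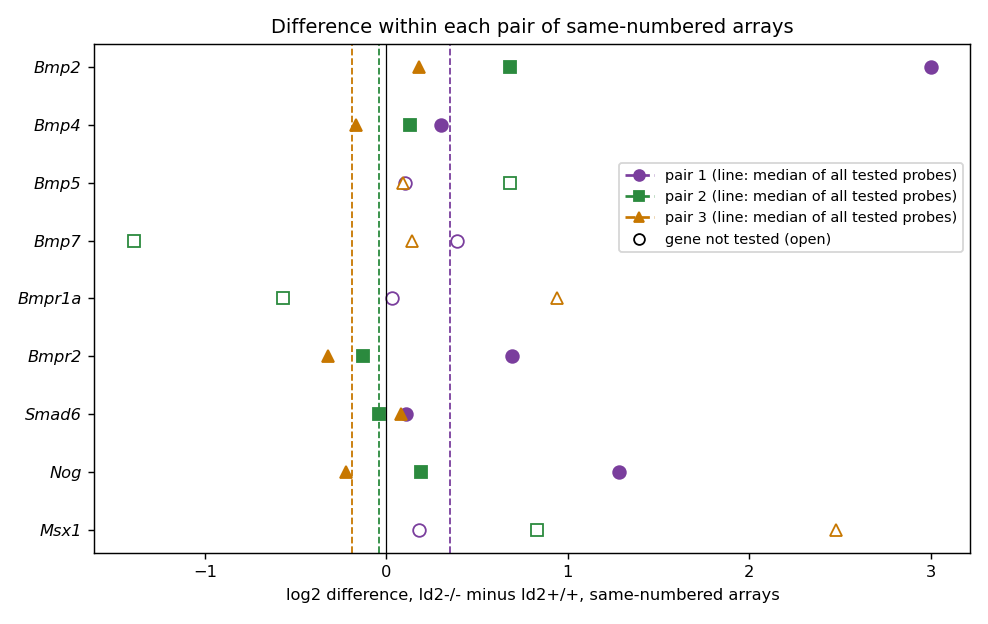
Log2 difference, *Id2*-/- minus *Id2*+/+, within the pairs of arrays numbered 1 (circles), 2 (squares) and 3 (triangles) for each gene, with open symbols for genes that were not tested. Dashed lines mark the medians over all tested probes of 0.35, -0.04 and -0.19. Points of *Bmp4* lie near these lines and those of *Smad6* near 0. The largest differences are 3.0 for *Bmp2* in pair 1 and 2.48 for *Msx1* in pair 3.

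Over the 9 genes, 3 were above background on all 6 arrays, namely *Bmp4*, *Bmpr2* and *Smad6*, and 5 were tested. Limma without a block called 0 of these 5, as it called 0.0% of all 12741 probes, and 0 of the 5 had an unadjusted p under 0.05, against 234 of all tested probes. The methods' t-test also called 0 of the 5 after Benjamini-Hochberg adjustment. With the array number as a block limma called *Bmp2*, 1 of 5, against 2.18% of all tested probes in either direction and 1.06% in the direction of higher *Id2*-/- signal. Nothing is read from these shares, because *Bmp2* passed the limit on dim probes only through the genotype in which it was higher. The 5 differences were all positive, as were those of 7695 of the 12741 tested probes, so nothing is read from this count. These 5 ran from 0.05 to 1.29, with a median of 0.09, beside a median of 0.04 over all tested probes. The signs of 4 of the 5 turned when single arrays were left out, and *Bmp2* alone kept its sign. Of the tested genes *Bmp2* was also the only one with a positive difference in all 3 pairs, as 11.8% of all tested probes had. Both traits were favored by its entry into the test through its *Id2*-/- signals alone, so nothing is read from them. *Bmp5* and *Msx1*, which were not tested, also had a positive difference in all 3 pairs. In pair 1, however, their differences of 0.10 and 0.18 lay below the median of 0.35 over all tested probes.

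For 8 of the 9 genes, all but *Bmp2*, the difference between the arrays numbered 1 and the other 4 was larger in size than that between the genotype means. *Bmpr1a* was 2.61 higher on these 2 arrays than on the other 4, *Bmp7* 2.0 and *Bmp5* 1.27, on the log2 scale. The shift was 2.68 in *Id2*+/+ and 2.53 in *Id2*-/- samples for *Bmpr1a*, and it had the same sign in both genotypes for *Bmp4*, *Bmp5*, *Bmp7*, *Nog*, *Smad6* and *Msx1* as well. Of the 7 genes above background on both arrays numbered 1, 3 were at least 2-fold higher there, against 19.8% of the 14398 probes that met the same condition. This condition favors higher signals on these arrays and leaves out *Bmp2* and *Msx1*, so nothing is read from the count. *Msx1* lay 1.59 lower on the arrays numbered 1, and *Bmp2* was lower only on the *Id2*+/+ one, by 2.47, against 0.10 higher on the *Id2*-/- one. Marker lists shifted with the array number too. The median shift of the tested markers was -0.55 for the epithelium, -0.65 for the mesenchyme, -0.65 for smooth muscle, 0.35 for enteric neural crest and neurons and 0.03 for the endothelium. The summed mesenchymal signal of 11 measured genes was 3570 to 8400 in *Id2*+/+ and 4380 to 7700 in *Id2*-/- samples, lowest in each genotype on the array numbered 1. No source used here says what the arrays numbered 1 share, and the part of tissue composition in the shift was not tested.

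**Figure D3:**
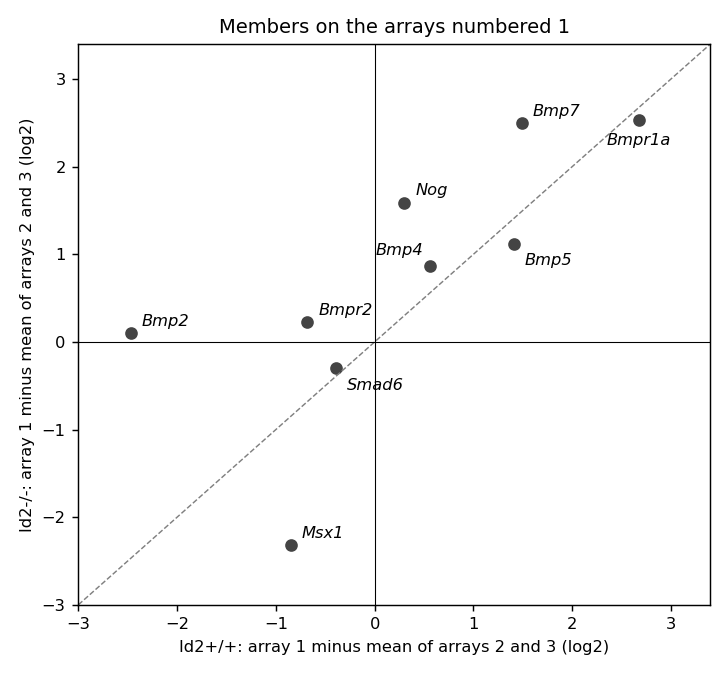
Log2 signal of the array numbered 1 minus the mean of the arrays numbered 2 and 3, in *Id2*+/+ (horizontal axis) and *Id2*-/- samples (vertical axis), for the 9 genes, with a dashed line at equal values. *Bmpr1a*, *Bmp7* and *Bmp5* lie at the upper right, *Msx1* at the lower left, and *Bmp2* at -2.47 and 0.10.

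The rest of the pathway was examined through 68 further genes listed by role, of which 58 had a probe and 32 were tested. Limma called 0 of the 32 without the block and 0 with it, and 2 had an unadjusted p under 0.05 in each fit, beside 234 of the 12741 tested probes without the block and 879 with it. The median difference was 0.13, beside 0.04 over all tested probes, and ranged from -0.48 to 0.74. No gene of these lists differed by 2-fold between the genotype means, as 198 of all tested probes did. Of the 2 other ligands that were tested, *Gdf10*, which encodes a divergent family member, had log2 signals of 1.61, 1.63 and 1.52 in *Id2*+/+ and 2.47, 2.15 and 2.27 in *Id2*-/- samples. The groups did not overlap, but the difference of 0.71 (standard error 0.23, unadjusted p = 0.0153) did not pass limma (adjusted p = 1.0 without and 0.243 with the block). *Tob2*, which encodes an antiproliferative protein of the Tob family, likewise did not overlap, with 1.40, 1.31 and 1.16 against 2.19, 1.68 and 2.21. Its difference was 0.74 (limma adjusted p = 1.0 without and 0.202 with the block), and it was the largest of 5 tested intracellular inhibitors. All *Id2*-/- signals lay above all *Id2*+/+ signals for 2.73% of all tested probes. *Gdf10* and *Tob2* were named for the smallest p of their lists, so nothing is read from their lack of overlap.

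Among the 6 tested receptors and co-receptors the smallest p belonged to *Eng*, the endothelial co-receptor endoglin, with a difference of 0.25 and a 95% interval of -0.49 to 1.0. The median of this list was 0.11. The 4 tested Smads and partners had a median of 0.17, and *Map3k7*, which encodes the kinase TAK1, differed by 0.23 (95% interval -0.41 to 0.87). In the 11 tested extracellular inhibitors and modulators the median was 0.04. *Fstl3*, which encodes a follistatin-like binding protein, was lower by pair at -0.13, -0.91 and -0.39, but its mean difference of -0.48 did not pass limma (adjusted p = 1.0). Of 10 other target genes 4 were tested, with a median difference of 0.27. *Id1*, which encodes the related Id protein, had log2 signals of 5.73, 4.66 and 4.87 in *Id2*+/+ and 6.21, 5.25 and 5.37 in *Id2*-/- samples. Each *Id2*-/- array was higher than its same-numbered partner, by 0.48, 0.60 and 0.51, while the groups overlapped through the arrays numbered 1. The median of 5 erythroid markers was higher in each pair too, by 0.78, 0.53 and 0.57. So was that of 3 gastric markers, by 0.61, 0.04 and 0.1. That of 5 intestinal epithelial markers differed by 0.02, -0.92 and -1.06. The part of these lists in the value of *Id1* was not tested. The difference of 0.53 in *Id1* was not called by limma in either fit, with an adjusted p of 1.0 unpaired and of 0.757 when the array number was a block.

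**Figure D4:**
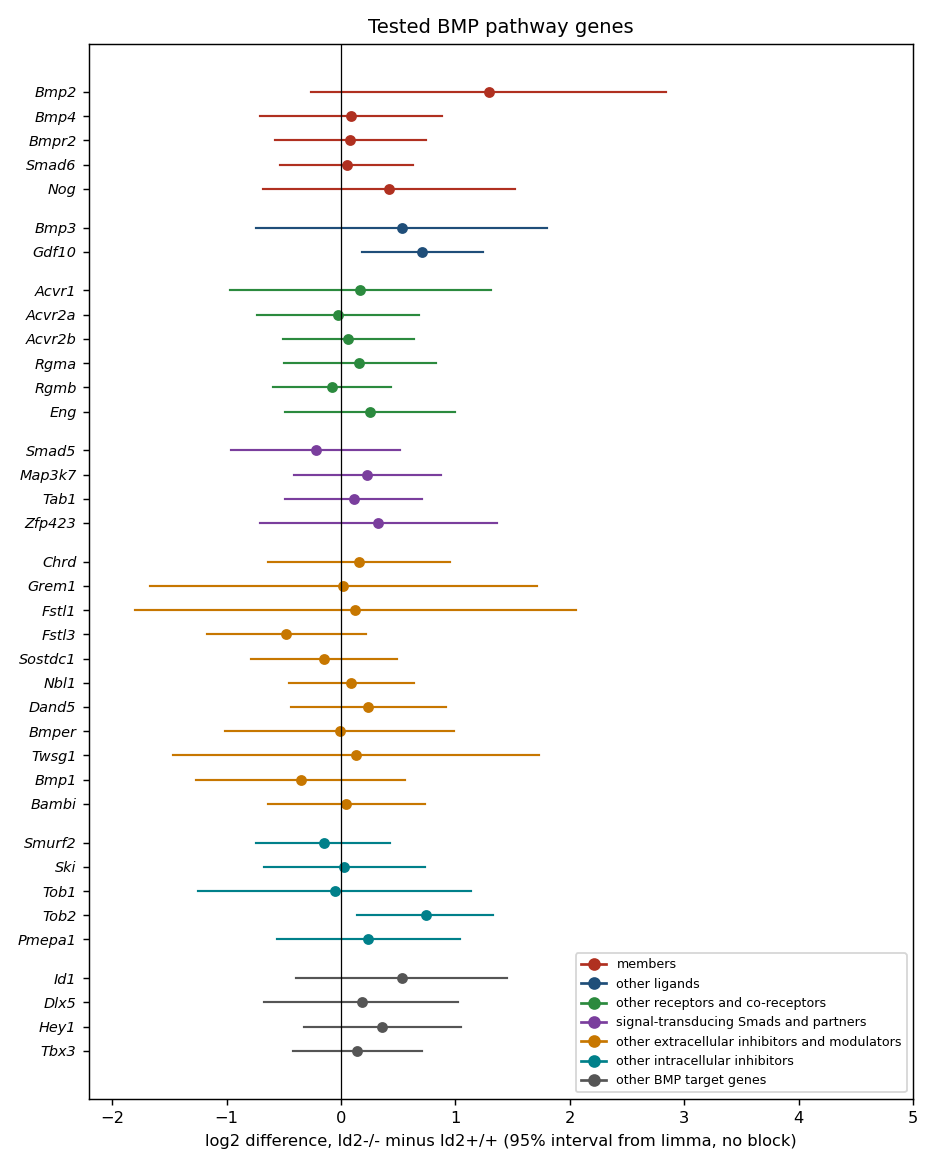
Log2 difference between genotype means, *Id2*-/- minus *Id2*+/+ (horizontal axis), with its 95% interval from limma without a block, for the 5 tested members and the 32 other tested pathway genes, colored by role. The intervals, which are not adjusted for the number of genes, include 0 for all genes but *Gdf10* and *Tob2*.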

How the data were processed

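The authors hybridized digoxigenin-labeled RNA, amplified for 1 round, to the Applied Biosystems mouse genome survey microarray version 2.0, and deposited per spot an intensity, a signal-to-noise score, a quality flag and a median-normalized signal. That signal is the intensity divided by a constant per array of 708.0 to 1010.4, the median over that array's unflagged spots. A flag of 5000 or more was taken here to mark a bad spot, an interpretation from the values. Scanner software and background subtraction are not given in the sources used here.

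Log2 of the deposited median-normalized signal was compared between genotypes by limma (version 3.58.1, R 4.3.3; eBayes, Benjamini-Hochberg over 12741 probes, threshold 0.05, two-sided), without a block. After subtraction of the genotype means, arrays with the same number correlated at 0.838, 0.644 and 0.579. Across the numbers 2 and 3 the correlations were similar. They were 0.638 for *Id2*+/+ number 2 with *Id2*-/- number 3, and 0.549 for *Id2*+/+ number 3 with *Id2*-/- number 2. Arrays with the same number were treated as pairs, but for the numbers 2 and 3 this rests on the labels, which give only the numbers. A fit with the array number as a block was also run. The block made the prior degrees of freedom of limma infinite. Gene names come from the platform annotation, checked against a RefSeq gene table (14402 of 14411 named probes matched). The members, gene lists and alternatives were chosen with earlier results of these data known. Named from the other lists are the gene with the smallest p of each role and any gene called; *Cdx1* and *Msx2* are named outside this rule, after their values were seen. Both fits were tested on simulated data with known changes. Noise and shifts by array number were of a chosen size, alike for all 3 numbers, and were not estimated from these arrays. Mean differences were recovered, but the fit without a block called none of the smallest changes simulated, of 2-fold. The data can differ from these settings, and an absent call does not exclude a change of that size. Alternatives varied the normalization (quantile, centring on the tested probes, or an added 50% of the median before the log), the limit on dim probes, the source (deposited table of the series), the block, the prior (trended and robust), the arrays included and the test (the methods' t-test, arithmetic means). The number of arrays limits the precision. Figures were drawn with matplotlib 3.10.9.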

Additional observations from a re-analysis of the deposited data

How the results depend on the processing

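The median difference over the tested BMP genes, 0.09, was 0.04 to 0.12 under the other settings and 0.00 to 0.27 when single arrays were left out. Under every alternative run, 0 other pathway genes were called. The array number as a block (replicate block) raised the number of tested BMP genes called from 0 to 1, *Bmp2* at 1.29, and that over all probes from 0 to 278; with quantile normalization or centring added, both counts were 0. *Smad6* turned to -0.01 with quantile normalization, with or without the replicate block. *Bmpr2* was -0.23 without both arrays numbered 1, an alternative chosen after seeing the data. The causes were not tested. When single arrays were left out, differences ran from 0.46 to 1.85 for *Bmp2*, -0.20 to 0.27 for *Bmp4*, -0.15 to 0.21 for *Bmpr2*, -0.08 to 0.15 for *Smad6*, -0.11 to 0.81 for *Nog* and -0.03 to 0.44 for *Eng*, and 0 genes were called. Among the pathway genes the block changed no other call. Signals near background limit *Bmp2*, *Bmp5*, *Bmp7*, *Bmpr1a*, *Nog* and *Msx1*. Each gene had 1 probe, so no other probe could be compared.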
